A study of Mus musculus with 4 samples.

Results

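CD73 and CD39 are the cell-surface enzymes that turn extracellular ATP into adenosine, and the genes described here encode these enzymes together with the receptors, the transporter and the adenosine-removing enzymes around them. Of the 34745 genes in the deposited mouse table, the 9 whose symbols are Nt5e, Entpd1, Adora2a, Ada, Adk, P2rx7, P2rx4, Slc29a1 and Dpp4 were taken by name. RNA was sequenced from naive CD4+ T cells of C57BL/6 mouse spleen that had spent 3 days in culture under conditions favouring regulatory T (Treg) cells. The wild-type group held libraries 13 and 15, and the knockout-labelled group held libraries 22 and 24, whose genotype is given as Setd2-CD4 cre, that is, Setd2 with a Cre recombinase driven by the T-cell gene Cd4. Setd2 encodes the enzyme that trimethylates lysine 36 of histone H3. The labels do not say whether the wild-type cells carried Cre or a floxed allele, nor whether replicates were taken from different mice. The p-values therefore describe only how far these libraries spread, and that spread may be technical.

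Damaged or activated cells release ATP, which opens the ATP-gated cation channels P2X7 (P2rx7) and P2X4 (P2rx4) on T cells. CD39 (Entpd1) strips phosphates from ATP and ADP to leave AMP, and CD73 (Nt5e) converts AMP to adenosine, which acts on a Gs-coupled receptor (Adora2a) to raise cyclic AMP and restrain T-cell activation. Adenosine is taken up by the equilibrative transporter ENT1 (Slc29a1), phosphorylated to AMP by adenosine kinase (Adk) or deaminated to inosine by adenosine deaminase (Ada). CD26 (Dpp4) is a surface dipeptidyl peptidase that, in humans, also anchors adenosine deaminase at the cell surface. Treg cells of the mouse are known for carrying CD39 and CD73 together.

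Library totals ran from 14599957 to 16030869 counts, and 3 counts equalled 0.184 to 0.201 CPM. CPM are counts at a common library size and are the unit used below unless FPKM is named. Setd2 itself did not pass the test (137, 146, 137 and 113 CPM in wild type 13, wild type 15, knockout-labelled 22 and knockout-labelled 24; log2 fold change -0.17, adjusted p = 0.436), and which exons were deleted is not given in the labels. A count over the whole gene therefore does not check the label. Markers of CD4 T cells summed to 3353 and 3182 CPM in the wild-type pair against 3439 and 3285 CPM in the knockout-labelled pair. Of the 7 genes, 0 passed with edgeR and 1 with DESeq2, and Cd28 alone had an unadjusted p under 0.05 with edgeR. Single genes moved in both directions. Cd28 (406, 395, 675 and 512 CPM) and Cd5 were higher in both knockout-labelled libraries. Cd3g (470, 460, 301 and 412 CPM) and Trac (557, 517, 395 and 482 CPM) were lower in both. Cd3d, Cd3e and Cd4 overlapped between groups. Across the 13279 genes that passed the filter on low counts, 734 were higher and 610 lower with the knockout label at an adjusted p under 0.05 by edgeR's quasi-likelihood test with Benjamini-Hochberg adjustment, which is 10.1% of genes.

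Nt5e, Adora2a and Dpp4 were higher in the knockout-labelled libraries, by 1.45-fold, 2.12-fold and 1.5-fold, and Ada and P2rx7 were lower, by 2.34-fold and 1.89-fold. Entpd1, P2rx4, Slc29a1 and Adk did not pass the test. Thus 3 of the 9 genes were higher and 2 lower, where 5.53% of all tested genes were higher and 4.59% lower. Because the 9 genes were chosen with earlier results of these data known, their counts cannot be set against these shares as a test. All 9 passed the filter on low counts in the full set of libraries. The 2 groups did not overlap in 8 of the 9 genes, 4 with the higher values in the knockout-labelled libraries and 4 with the lower ones, and 63.8% of all tested genes had groups that did not overlap. The median log2 fold change was -0.09 over the 9 genes and -0.00 over all tested genes. Calls were fewer with 1 wild-type library left out. Without wild-type library 13, P2rx7 alone passed (2.33% of all genes did), and without wild-type library 15 none of the 9 passed with edgeR (1.37% of all genes did), while 5 had an unadjusted p under 0.05. Those fits took their spread from the knockout-labelled pair alone, which varied more (chi-square per degree of freedom 30.6, against 9.9 for wild type). They therefore cannot show whether a call rested on the library left out. With each library left out in turn, log2 fold changes were 0.45 to 0.62 for Nt5e, 0.89 to 1.25 for Adora2a and 0.565 to 0.594 for Dpp4. They were -1.54 to -0.96 for Ada and -1.08 to -0.75 for P2rx7. Without knockout-labelled library 22, and likewise without library 24, Slc29a1 passed beside the 5 (13.8% and 30.2% of all genes did). Against a minimum fold of 1.5, 0 of the 9 passed with edgeR (0.904% of all genes did). Of the 9, 3 had an unadjusted p under 0.05, and the share of all genes at that p was not taken. With limma on log2(FPKM + 1), Ada and Adora2a passed, joined by P2rx7 on log2(FPKM + 0.1), where 6.71% of all genes passed in each. RNA came from bulk cultures, in which fewer cells of a type and less RNA per cell cannot be told apart.

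**Figure D1:**
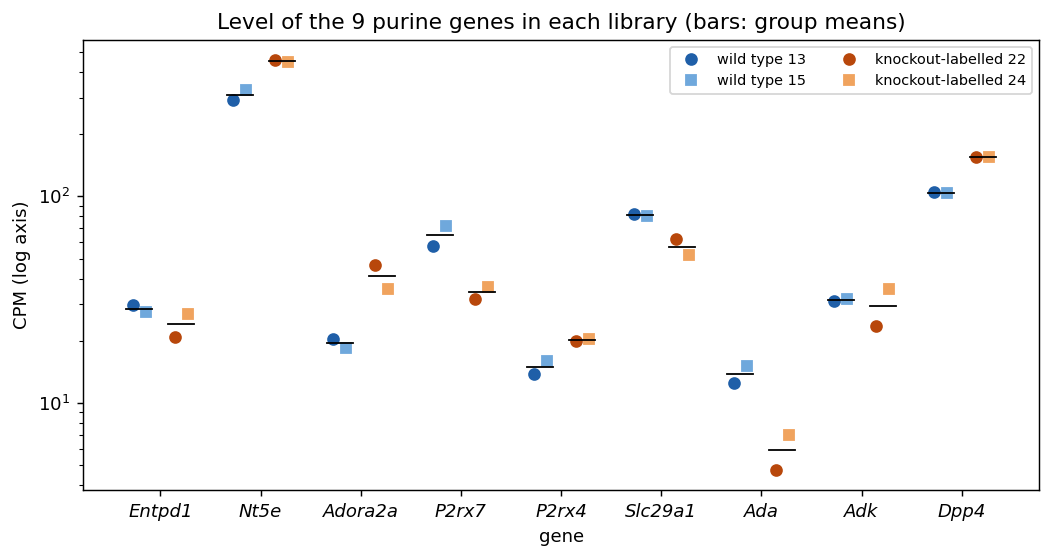
Level of each of the 9 genes in each of the 4 libraries, in CPM on a log axis; points are single libraries and short lines are group means. Nt5e is the highest gene by CPM in every library, at 292 and 328 CPM in the wild-type pair against 456 and 445 CPM in the knockout-labelled pair, and Adk is the gene whose groups overlap.

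The start regions of Dpp4, Ada and P2rx7 are shown to set a gene with higher counts beside genes with lower counts. Each is read 5′ to 3′ on the strand of its gene, and those of Dpp4 and Ada end at the base before the start given by RefSeq (GRCm38.p6). The Dpp4 region is the whole window of 250 bases at chr2:62412232-62412481, minus strand. That of Ada is chr2:163750240-163750489, minus strand, and capitals mark a Stat-like match and then an Sp1-like match. The P2rx7 region is chr5:122643677-122643910, plus strand, 234 bases of the window before the first of 2 RefSeq starts, and stops 16 bases short of that start, where an annotated exon begins, with an Sp1-like match in capitals.
Dpp4: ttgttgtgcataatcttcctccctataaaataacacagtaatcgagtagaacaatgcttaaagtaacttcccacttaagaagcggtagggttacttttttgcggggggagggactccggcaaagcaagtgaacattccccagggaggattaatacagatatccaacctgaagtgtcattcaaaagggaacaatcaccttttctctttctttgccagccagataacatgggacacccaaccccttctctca
Ada: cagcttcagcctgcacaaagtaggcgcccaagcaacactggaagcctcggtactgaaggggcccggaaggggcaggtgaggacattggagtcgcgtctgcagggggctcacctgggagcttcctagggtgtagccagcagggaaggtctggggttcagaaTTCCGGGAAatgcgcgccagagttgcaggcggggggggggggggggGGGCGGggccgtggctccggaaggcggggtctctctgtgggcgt
P2rx7: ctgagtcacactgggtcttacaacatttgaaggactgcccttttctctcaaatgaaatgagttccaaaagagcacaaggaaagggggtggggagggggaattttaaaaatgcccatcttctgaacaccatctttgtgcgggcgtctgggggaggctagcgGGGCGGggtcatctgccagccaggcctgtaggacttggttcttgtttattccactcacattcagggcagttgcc

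Both strands of the 250-base windows were searched for the letters TGACGTCA (the Creb1 site, held by 1.55% of all 32851 RefSeq windows of this length), TGACG (its core, 17.8%, which also lies within the full site), TTCNNNGAA (a Stat site, 7.02%), GGGCGG (an Sp1 box, 32.7%), ACGTG (a hypoxia-factor core, 16.6%) and GCGTG (an Ahr core, 28.2%). The Dpp4 window, with 43.6% G and C, held none of these. That of Ada, with 67.2% G and C, held the Stat letters starting 90 bases and the Sp1 letters starting 44 bases before the start. The window of the first P2rx7 start, with 53.6% G and C, held Sp1 letters 90 and 11 bases before the start, the latter in the stretch not shown, and that of its other start, with 50.0% G and C, held none of the motifs. Windows were matched for 8 of the 9 genes. The Nt5e window lies within an annotated exon and is not printed; its G and C share was 72.0%, with 4 Sp1 matches and 1 Ahr match. A match is a description of letters and not a binding site.

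Among the surface enzymes, Nt5e was higher and Entpd1 did not pass the test. Nt5e (ENSMUSG00000032420, protein-coding, chromosome 9, 88327197 to 88372092, plus strand, in the GRCm38 coordinates of the deposited table) measured 292 CPM in library 13 and 328 CPM in library 15, both wild type, and 456 CPM in library 22 and 445 CPM in library 24, both knockout-labelled. Both knockout-labelled libraries lay above both wild-type libraries, and the gap of 117 CPM between the groups was wider than the difference between replicates, 36.7 CPM between the wild-type libraries and 10.8 CPM between the knockout-labelled ones. Group means were 310.0 ± 26.0 and 450.3 ± 7.62 CPM (SD, n = 2 each), a log2 fold change of 0.54 (SE 0.12, 95% interval 0.26 to 0.82, adjusted p = 0.0383). Nt5e did not pass without wild-type library 13 (adjusted p = 0.339) or without wild-type library 15 (adjusted p = 0.224), with log2 fold changes of the same sign.

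Entpd1 (ENSMUSG00000048120, chromosome 19, 40612366 to 40741602, plus strand) measured 29.8 and 27.5 CPM in wild-type libraries 13 and 15, against 20.9 and 27.1 CPM in knockout-labelled libraries 22 and 24. Knockout-labelled 24 lay 0.441 CPM below wild type 15, while the knockout-labelled replicates differed from each other by 6.18 CPM. The log2 fold change was -0.26 (SE 0.18, 95% interval -0.69 to 0.17, adjusted p = 0.365), so that the interval leaves room for a decrease as well as for no difference. Measured per length, Nt5e stood at 8.8 and 10.7 times the FPKM of Entpd1 in wild type 13 and 15, and at 19.6 and 14.8 times in knockout-labelled 22 and 24.

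Nt5e and Entpd1 belong to a list of 13 ectonucleotidase genes, of which 7 passed the filter on low counts. Of these, 3 were higher, 2 were lower and 2 did not pass, with a median log2 fold change of 0.09. Of all tested genes, 5.53% were higher and 4.59% lower. This list and those below were chosen with earlier results of these data known. Their counts therefore cannot be set against these shares as a test. Beside Nt5e, Enpp1, which cleaves ATP directly to AMP and pyrophosphate, measured 27.2 and 29.9 CPM in the wild-type pair against 45.7 and 41.5 CPM in the knockout-labelled pair (log2 fold change 0.61, adjusted p = 0.0432). Enpp2, the secreted enzyme autotaxin that makes lysophosphatidic acid, measured 17.2, 11.9, 32.3 and 27.8 CPM in the same order (1.04, adjusted p = 0.0357). The groups of both genes did not overlap. Entpd5, a nucleoside diphosphatase of the endoplasmic reticulum, was lower (log2 fold change -0.74, adjusted p = 0.0383), as was Enpp4 (-1.19, adjusted p = 0.0199), at 23.2 and 25.4 CPM in the wild-type pair against 9.70 and 11.6 CPM in the knockout-labelled pair. Without wild-type library 15 none of these 4 passed (adjusted p 0.092 for Enpp4, 0.221 for Enpp2, 0.247 for Enpp1 and 0.275 for Entpd5). Enpp1 and Entpd5 also missed without wild-type library 13 (0.303 and 0.0749), and Enpp2 and Entpd5 without knockout-labelled library 22 (0.0562 and 0.0576). Enpp1 missed with libraries scaled by totals only (0.0505), and Enpp1, Enpp2 and Entpd5 missed with limma on both FPKM scales (0.055 to 0.108).

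Adora2a, the adenosine receptor gene, had the largest rise of the 9 genes. It measured 20.4 CPM in library 13 and 18.4 CPM in library 15, both wild type, and 46.4 CPM in library 22 and 35.7 CPM in library 24, both knockout-labelled. Both knockout-labelled values were above both wild-type values, with the larger spread in the knockout-labelled pair. Means were 19.4 ± 1.43 and 41.1 ± 7.52 CPM (SD, n = 2 each), a log2 fold change of 1.08 (SE 0.18, 95% interval 0.65 to 1.51, adjusted p = 0.0225). The gene (ENSMUSG00000020178) spans 75316943 to 75334788 on the plus strand of chromosome 10. Without wild-type library 13 its adjusted p was 0.0609 and without wild-type library 15 it was 0.124.

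Of the other adenosine receptor genes, Adora2b measured 4.23 and 4.03 CPM in the wild-type pair against 2.48 and 3.51 CPM in the knockout-labelled pair (log2 fold change -0.46, adjusted p = 0.343), and the values of Adora3 overlapped between groups at 1.16 to 2.01 CPM. Adora1 had 0 counts in every library, which allows a level of up to 0.184 to 0.201 CPM. Adora2a was thus the 1 of 3 tested receptor genes of this family that passed. Its FPKM was 3.51 and 3.32 times that of Adora2b in wild type 13 and 15, and 13.6 and 7.41 times in knockout-labelled 22 and 24.

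Of the ATP-gated channel genes, P2rx7 was lower and P2rx4 did not pass the test. P2rx7 (ENSMUSG00000029468, chromosome 5, 122643911 to 122691432, plus strand) measured 57.4 CPM in library 13 and 72.0 CPM in library 15, both wild type, and 31.9 CPM in library 22 and 36.6 CPM in library 24, both knockout-labelled. Each knockout-labelled value was below each wild-type value. Means were 64.7 ± 10.4 and 34.2 ± 3.29 CPM (SD, n = 2 each), a log2 fold change of -0.92 (SE 0.16, 95% interval -1.30 to -0.53, adjusted p = 0.0257). P2rx7 did not pass without wild-type library 15 (adjusted p = 0.165), while its adjusted p was 0.0381 without wild-type library 13.

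P2rx4 (ENSMUSG00000029470) lies 16.1 kb downstream of P2rx7 on the same strand, at 122707544 to 122729738. It measured 13.9 and 16.0 CPM in wild-type libraries 13 and 15, against 19.9 and 20.4 CPM in knockout-labelled libraries 22 and 24. The groups did not overlap, yet the gene missed the threshold (log2 fold change 0.43, SE 0.17, 95% interval 0.02 to 0.84, adjusted p = 0.142). The ratio of P2rx7 to P2rx4 in FPKM was 3.68 and 4.0 in wild type 13 and 15 and 1.42 and 1.6 in knockout-labelled 22 and 24. The other 5 of the 7 P2X genes did not pass the filter on low counts, and P2rx3, with 2, 1, 8 and 10 counts, had the most reads among them.

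Among P2Y and related receptor genes, 5 of 9 were tested, and P2ry10, whose product responds to lysophosphatidylserine, was the 1 that was higher. It measured 267 and 283 CPM in the wild-type pair against 454 and 386 CPM in the knockout-labelled pair (log2 fold change 0.61, adjusted p = 0.035, and 0.244 and 0.223 without wild-type library 13 and without wild-type library 15). P2ry1, an ADP receptor gene, measured 3.06 and 3.09 CPM in the wild-type pair against 1.20 and 1.09 CPM in the knockout-labelled pair and lay just outside the threshold (log2 fold change -1.42, adjusted p = 0.0507). In mouse T cells, P2X7 can also be opened by ADP-ribosylation, which uses extracellular NAD. Of 7 genes for NAD-using surface enzymes, 4 were tested and 2 were higher (5.53% of all tested genes were). Cd38, an NAD-consuming enzyme, measured 27.6 and 30.7 CPM in the wild-type pair against 60.4 and 53.4 CPM in the knockout-labelled pair (log2 fold change 0.97, adjusted p = 0.0172). Bst1, its neighbouring relative CD157, was low, at 1.41, 1.34, 7.36 and 3.96 CPM (2.03, adjusted p = 0.0316). Art2b, the ADP-ribosyltransferase that modifies P2X7, measured 6.01 and 5.77 CPM in the wild-type pair against 2.41 and 3.77 CPM in the knockout-labelled pair and did not pass (-0.93, adjusted p = 0.0942). Cd38 and Bst1 missed without wild-type library 13 (0.0948 and 0.0751) and without wild-type library 15 (0.0833 and 0.104), and Bst1 also without knockout-labelled library 22 (0.0513) and with limma on log2(FPKM + 1) (0.0601).

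Slc29a1, which carries adenosine across the membrane, lay just outside the threshold. It measured 82.5 CPM in library 13 and 80.2 CPM in library 15, both wild type, and 62.0 CPM in library 22 and 52.1 CPM in library 24, both knockout-labelled, so that both knockout-labelled values were below both wild-type values. Means were 81.3 ± 1.65 and 57.0 ± 6.99 CPM (SD, n = 2 each), a log2 fold change of -0.51 (SE 0.14, 95% interval -0.85 to -0.17, adjusted p = 0.0643). It passed with DESeq2 (adjusted p = 0.0419, where 15.1% of all genes passed), with libraries scaled by totals only (0.0425, 10.9%), with upper-quartile scaling (0.0493, 9.52%) and with no filter on low counts (0.0452, 12.5%). It did not pass in edgeR with DESeq2 size factors (0.0654), with a filter of 5 CPM on average (0.0616) or against a minimum fold of 1.5. It also missed with limma-voom (0.0609) and with limma on log2(FPKM + 1) (0.0742) and log2(FPKM + 0.1) (0.0701). With each library left out in turn, its log2 fold change was -0.63 to -0.40. The gene (ENSMUSG00000023942, chromosome 17, 45585200 to 45599606, minus strand) shares 275 exonic bases with the antisense gene Gm17080, which had 0 counts in every library. Of 7 nucleoside transporter genes, 4 were tested and 0 passed with edgeR, while 3 had an unadjusted p under 0.05 and 2 passed with DESeq2. The purine-selective concentrative transporter gene Slc28a2, at 108 and 104 CPM in the wild-type pair against 75.4 and 78.3 CPM in the knockout-labelled pair, was close to the threshold too (-0.46, adjusted p = 0.0625).

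Of the enzymes that remove adenosine, Ada was lower and Adk did not pass the test. Ada (ENSMUSG00000017697, chromosome 2, 163726584 to 163750239, minus strand) measured 12.4 CPM in library 13 and 15.2 CPM in library 15, both wild type, and 4.75 CPM in library 22 and 7.02 CPM in library 24, both knockout-labelled. These are 203, 226, 71 and 110 counts, the fewest of the 5 that passed among the 9 genes, and the groups did not overlap. The log2 fold change was -1.23 (SE 0.25, 95% interval -1.83 to -0.62, adjusted p = 0.0348), with means of 13.8 ± 1.92 and 5.89 ± 1.61 CPM (SD, n = 2 each). Ada did not pass without wild-type library 13 (0.0603) or without wild-type library 15 (0.163).

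Adk (ENSMUSG00000039197, chromosome 14, 21052574 to 21448568, plus strand) measured 31.3 and 31.7 CPM in wild-type libraries 13 and 15, against 23.7 and 35.5 CPM in knockout-labelled libraries 22 and 24. Knockout-labelled 22 was the lowest of the 4 libraries and knockout-labelled 24 the highest, so the groups overlapped. The log2 fold change was -0.09 (SE 0.21, 95% interval -0.59 to 0.41, adjusted p = 0.799), and its sign rested on knockout-labelled 22, since it was 0.18 without that library and -0.41 without knockout-labelled library 24. The ratio of Adk to Ada in FPKM was 3.01 and 2.51 in wild type 13 and 15 and 5.98 and 6.06 in knockout-labelled 22 and 24. Which of the pair stands higher in wild type depends on the gene length: with counts divided by annotated exon length in place of the deposited FPKM, the ratio was 0.59 and 0.491 in wild type 13 and 15 and 1.17 and 1.19 in knockout-labelled 22 and 24.

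Ada and Adk belong to a list of 23 adenosine and purine salvage genes, of which 19 were tested. In this list 1 was higher and 4 were lower (5.53% and 4.59% of all tested genes were), with a median log2 fold change of -0.16. Xdh, which oxidises hypoxanthine and xanthine to uric acid, measured 32.8 and 29.99 CPM in the wild-type pair against 56.8 and 45.1 CPM in the knockout-labelled pair (log2 fold change 0.70, adjusted p = 0.0421). Ampd3, an AMP deaminase gene, measured 11.5, 14.02, 3.68 and 6.70 CPM in the same order (-1.29, adjusted p = 0.0485). Nt5c3b, a cytosolic nucleotidase gene, measured 40.2, 44.5, 18.5 and 20.3 CPM (-1.12, adjusted p = 0.0152). The groups of all 3 were separate. Adal, related to adenosine deaminase, measured 17.5 and 22.7 CPM in the wild-type pair against 8.70 and 11.8 CPM in the knockout-labelled pair (-0.97, adjusted p = 0.0481). Pnp, which splits the inosine formed by adenosine deaminase, overlapped between groups at 32.8 to 43.8 CPM. Without wild-type library 15 Xdh, Ampd3, Nt5c3b and Adal did not pass (0.290, 0.180, 0.0913 and 0.264). Without wild-type library 13 this held for Xdh, Ampd3 and Adal (0.156, 0.0705 and 0.0708), and without knockout-labelled library 22 for Ampd3 and Adal (0.0561 and 0.0765). Ampd3 and Adal also missed with upper-quartile scaling (0.0558 and 0.0543) and with a filter of 5 CPM on average (0.0523 and 0.0516). On the 2 FPKM scales with limma, Xdh, Ampd3 and Adal missed as well (0.0596 to 0.0842).

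Dpp4, the CD26 gene, was higher and had close replicates. It measured 105 CPM in library 13 and 103 CPM in library 15, both wild type, and 155 CPM in library 22 and 156 CPM in library 24, both knockout-labelled. The replicates of a group differed by 1.24 and 0.682 CPM and the groups lay 50.6 CPM apart. Means were 104 ± 0.878 and 156 ± 0.482 CPM (SD, n = 2 each), a log2 fold change of 0.58 (SE 0.12, 95% interval 0.30 to 0.86, adjusted p = 0.0338). Without wild-type library 13 the adjusted p was 0.266 and without wild-type library 15 it was 0.324. Dpp4 (ENSMUSG00000035000, chromosome 2, 62330073 to 62412231, minus strand) shares 232 exonic bases with the antisense gene Gm13561, to which 1, 0, 4 and 8 counts were assigned. Of 9 genes for dipeptidyl and related peptidases, 6 were tested and Dpp4 was the 1 that passed. Dpp8, a cytosolic relative, overlapped between groups at 192 to 241 CPM.

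**Figure D2:**
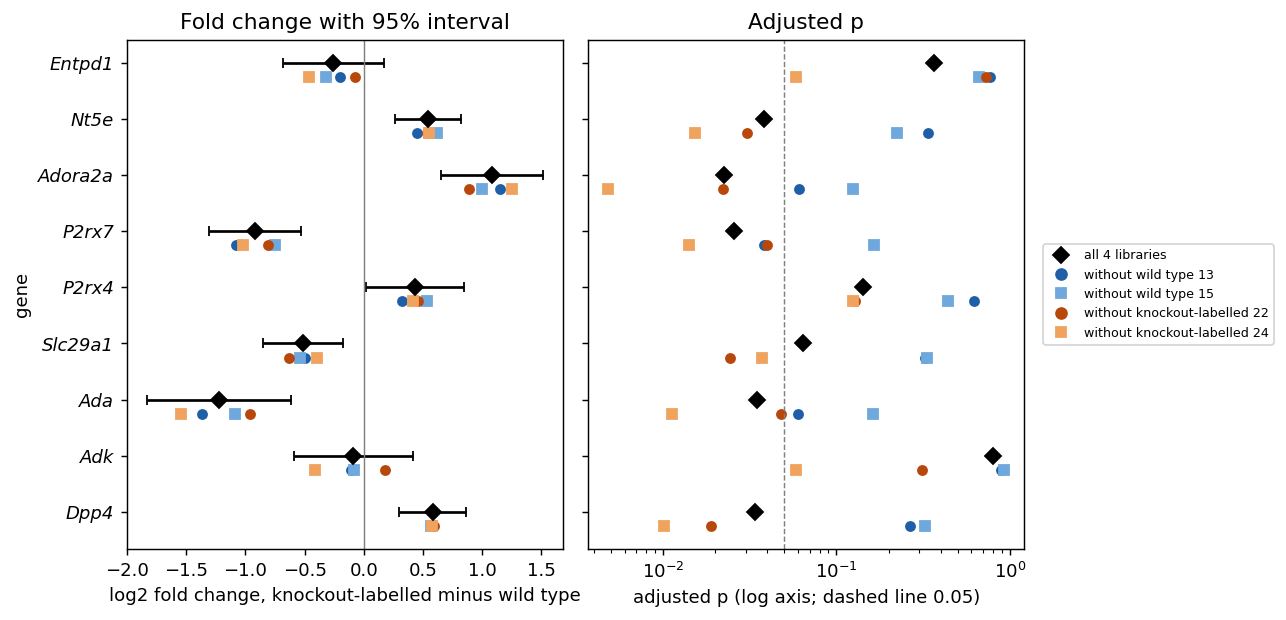
Left, log2 fold change of each gene (knockout-labelled minus wild type) with its approximate 95% interval over all 4 libraries (diamonds) and without each library in turn (circles and squares); right, the adjusted p of the same fits on a log axis, with a dashed line at 0.05. Fold changes of the 5 genes that passed keep their sign in every fit, the sign of Adk turns without knockout-labelled library 22, and of the 5 genes, 4 lie above the line without wild-type library 13 and all 5 without library 15.

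Levels of different genes were compared by the deposited FPKM, which are per length. In wild type the order was Nt5e at 33.3 ± 2.87, Adk at 18.0 ± 0.232, Dpp4 at 14.8 ± 0.0921, Slc29a1 at 8.17 ± 0.147, Adora2a at 7.80 ± 0.560, Ada at 6.59 ± 0.932, P2rx7 at 6.18 ± 1.01, Entpd1 at 3.43 ± 0.186 and P2rx4 at 1.60 ± 0.169 FPKM (SD, n = 2). Slc29a1 and Adora2a overlapped, as did Ada and P2rx7, and the other neighbours were apart. In the knockout-labelled libraries Nt5e, at 46.5 ± 0.644 FPKM, and Dpp4, at 21.2 ± 0.719 FPKM, were followed by Adk at 16.3 ± 5.09 and Adora2a at 15.8 ± 2.42 FPKM, which overlapped. Slc29a1 at 5.49 ± 0.505 FPKM came next, and P2rx7, Entpd1, Ada and P2rx4, at 3.15 ± 0.399, 2.76 ± 0.588, 2.71 ± 0.819 and 2.08 ± 0.0945 FPKM, each overlapped the next. Nt5e was thus the highest and P2rx4 the lowest of the 9 by mean in both groups.

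The order depends on the gene length, most for Adk, P2rx7 and Slc29a1. The length implied by the deposited count and FPKM was 1.78 kb for Adk, against 8.53 kb of exons in the GENCODE annotation, 10.2 kb for Slc29a1, against 4.01 kb, and 10.7 kb for P2rx7, against 5.97 kb. Implied over annotated length had a median of 1.22 over tested genes with annotated exons. It was 0.209 for Adk, 2.53 for Slc29a1 and 1.79 for P2rx7, and 85.6% of those genes lay below P2rx7. With counts divided by annotated exon length instead, Adk moved from place 2 to place 8 in wild type and from place 3 to place 7 in the knockout-labelled libraries. Slc29a1 moved from place 4 to place 2 and from place 5 to place 3, and P2rx7 from place 7 to place 4 and from place 6 to place 5. The other genes moved by at most 1 place. Ratios between genes change with the length too: Nt5e over Entpd1 became 6.35, 7.74, 14.2 and 10.7 and P2rx7 over P2rx4 became 4.87, 5.29, 1.88 and 2.11 in libraries 13, 15, 22 and 24.

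**Figure D3:**
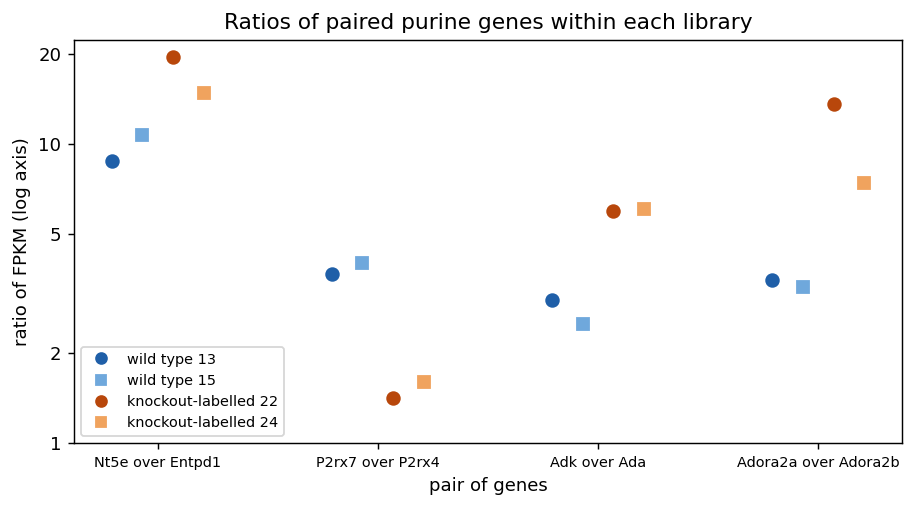
Ratio of FPKM between paired purine genes within each of the 4 libraries, on a log axis. In each of the 4 pairs the knockout-labelled libraries lie on one side of the wild-type libraries. Nt5e over Entpd1 is at 19.6 and 14.8 against 8.8 and 10.7 in wild type, and P2rx7 over P2rx4 at 1.42 and 1.6 against 3.68 and 4.0. Each pair holds a gene that passed the test (Nt5e, P2rx7, Ada or Adora2a), so the ratios are not separate from those calls. Of all tested genes, 63.8% had groups that did not overlap in CPM, and the share for ratios was not taken.

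The 13 lists, called purine lists here, held 145 symbols, and all their genes are counted as purine genes. They also took in cyclic AMP signalling genes, genes acting with P2X7, dipeptidyl peptidases and transcription factors described as regulators of Nt5e or Entpd1. Of the genes in the 13 lists, 108 were tested, of which 18 were higher, 13 lower and 77 did not pass. Without the 9 genes described above, 15 of 99 were higher and 11 lower. Of all tested genes, 5.53% were higher and 4.59% lower. Because the lists were chosen with earlier results of these data known, their counts cannot be set against these shares as a test. The median log2 fold change was -0.14 over the 108 and -0.15 over the 99, beside -0.00 over all tested genes. Among 12 genes for ATP release, 9 were tested and Gja1, which encodes the hemichannel protein connexin 43, was the 1 that passed. It measured 17.5 and 14.8 CPM in the wild-type pair against 58.2 and 45.5 CPM in the knockout-labelled pair, with no overlap (log2 fold change 1.68, SE 0.18, adjusted p = 0.0113). It passed without each library in turn, with an adjusted p of 0.00337 to 0.0209, and was the 1 purine gene that passed against a minimum fold of 1.5 (0.0296). The ATP channel gene Panx1 overlapped between groups at 47.1 to 59.0 CPM, and so did Lrrc8c, a subunit gene of the volume-regulated anion channel, at 220.4 to 235 CPM.

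**Figure D4:**
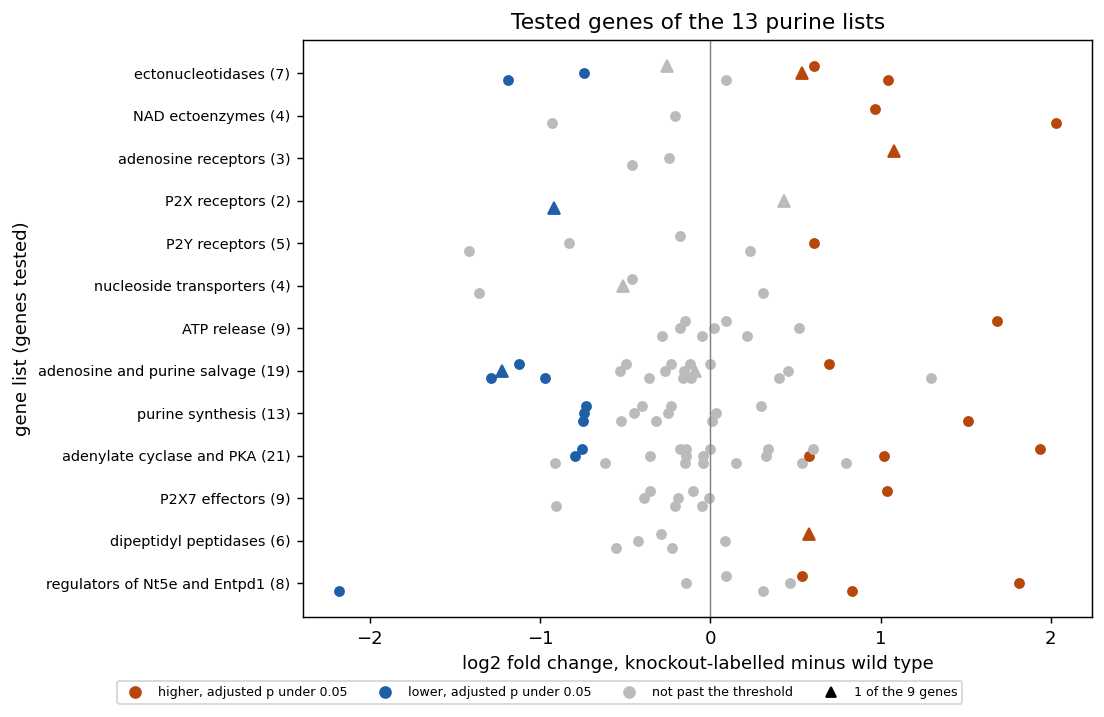
Log2 fold change (knockout-labelled minus wild type) of every tested gene in the 13 purine lists, 1 line per list with the number of tested genes in brackets; triangles are the 9 genes, orange and blue are higher and lower at an adjusted p under 0.05, and grey did not pass. Most of the 108 tested genes are grey (77), and higher and lower genes occur together in several lists.

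Genes with the most similar pattern were taken as those with the smallest distance in centred log2 CPM over the 4 libraries, for the 5 genes that passed. For Nt5e these were Slc43a1, Asb2 and Senp7, with 20 genes within a distance of 0.1. For Adora2a they were Smim24, Nat9 and Ulk1, with 10 genes within that distance. Pola1, Coq7 and Gen1 were nearest to Ada (3 genes within 0.1), and Uros, Zfp783 and Ctps to P2rx7 (6 genes). Kif3a, Zcchc8 and Tpd52 were nearest to Dpp4, which had 43 genes within 0.1. The smallest distances were 0.0135 for Kif3a and Dpp4 and 0.028 for Smim24 and Adora2a. Some of these neighbours did not pass the test: Slc43a1, Asb2 and Senp7 (adjusted p 0.091, 0.0563 and 0.0554), Coq7 (0.0501), Uros (0.0547) and Kif3a (0.0541). The other neighbours named here passed. Pola1 encodes a DNA polymerase subunit and measured 109, 128, 42.9 and 59.1 CPM across the libraries in the order used above. With only 4 libraries, many genes share any simple pattern.

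Markers of other cell types were measured beside these changes, because Entpd1, Nt5e, P2rx7 and Dpp4 are also expressed by other cells of the spleen. Treg markers summed to 2680 and 2681 CPM in the wild-type pair against 2151 and 2138 CPM in the knockout-labelled pair. Of the 6 genes, 4 were lower: Foxp3, Il2ra (log2 fold change -0.52, adjusted p = 0.0304), Izumo1r (-1.25, adjusted p = 0.0267) and Gpr83 (-3.60, adjusted p = 0.0108). Foxp3, the Treg-defining factor, measured 242, 247, 31.9 and 75.8 CPM. The other 2 did not pass and had higher values in the knockout-labelled libraries without overlap: Ctla4 measured 684, 676, 968 and 835 CPM (log2 fold change 0.41, adjusted p = 0.0702) and Ikzf2 167, 165, 221 and 201 CPM (0.34, adjusted p = 0.103). The γδ T-cell markers summed to 20.04 and 20.06 CPM in the wild-type pair against 41.6 and 62.4 CPM in the knockout-labelled pair. Of these 6 genes, 3 were higher (Tcrg-C1, Tcrg-C2 and Cd163l1), and 1 of the 6 passed with limma-voom. Trdc (5.09, 6.57, 10.1 and 5.81 CPM) and Tcrg-C4 (2.21, 4.36, 2.14 and 4.28 CPM) overlapped between groups. Sox13 had 0, 0, 3 and 1 counts. B-cell markers summed to 226, 229, 286 and 335 CPM, most of it from Ighm (207, 212, 247 and 308 CPM). Of the 8 genes, 0 passed with edgeR or DESeq2 and 5 had an unadjusted p under 0.05. Fcer2a was lower in both knockout-labelled libraries (3.68, 3.69, 2.61 and 2.17 CPM), while the rest were higher in both. Macrophage and monocyte markers summed to 21.9, 29.9, 20.9 and 26.0 CPM, and 0 of 8 passed with edgeR, with DESeq2 or at an unadjusted p under 0.05. Dendritic-cell markers summed to 24.8, 19.1, 35.8 and 26.2 CPM, with Xcr1 and Siglech at 0 counts. Of these 6 genes, Zbtb46 was higher (log2 fold change 1.43, adjusted p = 0.0217) and Flt3 lower (-1.61, adjusted p = 0.0449), and 1 of the 6 passed with limma-voom. Natural killer markers summed to 24.6, 23.3, 15.4 and 9.38 CPM, with 1 of 6 lower. That gene, Eomes, made up most of the sum (22.7, 21.7, 10.2 and 7.53 CPM), and only 2 of the 6 were tested. Ncr1 (0, 0, 8 and 3 counts) and Klra4 (4, 1, 17 and 9 counts), not tested, were higher in both knockout-labelled libraries. Klrb1c, Klra8 and Klrg1 overlapped between groups. CD8 T-cell markers summed to 125, 183, 182 and 78.4 CPM. Neutrophil markers reached 0.604 to 6.19 CPM in sum, erythroid and platelet markers 6.24 to 8.27 CPM, and markers of stroma and endothelium 43.1 to 66.6 CPM. Nearly all of the stroma and endothelium sum came from Pecam1 (43.7, 41.9, 65.3 and 56.6 CPM). The part of these cells in the levels of the 9 genes was not tested.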

How the data were processed

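RNA-seq of 4 libraries, 2 per group, was analysed from 1 deposited table. The submitters' processing notes name Bowtie2, RSEM and the GRCm38.p6 (mm10) build. The annotation release, strand setting, versions and options were not given in the sources used here. Sense and antisense reads over shared exons therefore cannot be told apart. The authors' deposited values are whole-number counts per gene and FPKM, which are scaled to library total and to a gene length. Groups came from the genotype in the labels.

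From the counts, genes were filtered with filterByExpr (minimum count 10, minimum total 15), scaled with TMM normalization (0.959 to 1.02) and compared with edgeR 4.0.16 (glmQLFit and glmQLFTest, R 4.3.3), two-sided, with no covariate. Benjamini-Hochberg adjustment covered all 13279 tested genes, and 0.05 was the threshold. Every adjusted p is from this test unless another tool is named. The share of all genes with an unadjusted p under 0.05 was not taken. Counts at an unadjusted p therefore have no share to be set against. Standard errors were taken as the log2 fold change over the square root of F, and these and the 95% intervals are approximate. CPM used scaled library sizes. An exact test of 2 against 2 libraries cannot go below p = 0.333, so the test borrows the spread of all genes. Counts of replicates were not within sampling noise (chi-square per degree of freedom 9.9 for wild type, 30.6 for the other pair). Each library was taken as 1 replicate, although this spread does not show whether replicates came from different mice or cultures. Floors of 3 counts cover counting error only. The tests were tried on simulated counts.

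The 9 genes, the 13 purine lists and the 11 marker lists were chosen with earlier results of these data known. Of 213 list symbols, 209 matched the table, 2 matched through reference names and 2 were not matched. All 9 genes are described. From the lists, genes past the threshold are named, and genes that did not pass are named as examples chosen after their values were seen. Patterns were compared in log2 CPM (prior count 2). Annotation and exon lengths came from GENCODE and start regions from RefSeq. Alternatives were other scalings, filters of none and of 5 CPM on average, DESeq2 1.42.0, limma 3.58.1 (voom on counts, and log2 of FPKM + 1 or FPKM + 0.1), a minimum fold of 1.5 (glmTreat) and each library left out in turn. The order and the ratios by annotated exon length were added after the data were seen. Figures were drawn with matplotlib 3.10.9.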

Additional observations from a re-analysis of the deposited data

How the results depend on the processing

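With 4 libraries, a difference smaller than the spread between replicates was not detectable, and counts under the filter were not tested. No paired analysis was possible because the 2 groups share no library numbers. Of the 126 comparisons of the 9 genes with an alternative, 100 kept direction and side of the threshold, 19 lost the call, 6 gained it and 1 turned. The 1 that turned was Adk, at a log2 fold change of 0.18 without knockout-labelled library 22, against -0.41 to -0.09 without each of the others. For the other named genes, 288 comparisons kept both, 99 lost the call and 4 gained it. The 3 higher genes became 1 with limma on FPKM + 1 and on FPKM + 0.1, and 0 against a minimum fold of 1.5, where the 2 lower genes also became 0 (0.904% of all genes passed, and 3 of the 9 had an unadjusted p under 0.05). The 2 lower genes became 1 with FPKM + 1. Leaving out each library gave 0 to 3 higher and 0 to 3 lower. Of the purine genes, 18 higher became 9 with FPKM + 1, 10 with FPKM + 0.1 and 1 (Gja1) against a minimum fold, and 2 to 25 without each library. The 13 lower became 8 with FPKM + 1, 0 against a minimum fold, and 1 to 26 without each library. Over all genes, 734 higher became 1261 with no filter, 445 with FPKM + 1, 457 with FPKM + 0.1, 85 against a minimum fold, and 120 to 2122 without each library. The 610 lower became 1088 with no filter, 35 against a minimum fold, and 70 to 2002 without each library. Where 1 library was left in a group, it was assumed to vary like the other group. The causes were not tested.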

Other observations

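Genes downstream of the Adora2a receptor were measured too. Of 25 genes for cyclic AMP signalling, 21 were tested. In this list 3 were higher and 2 lower (5.53% and 4.59% of all tested genes were), with a median log2 fold change of -0.04. Rapgef3, which encodes the cyclic AMP sensor Epac1, measured 6.50 and 5.37 CPM in the wild-type pair against 28.7 and 16.9 CPM in the knockout-labelled pair (log2 fold change 1.94, adjusted p = 0.0199), and it passed without each library in turn (0.00338 to 0.0402). Its relative Rapgef4 measured 20.04 and 17.98 CPM in the wild-type pair against 41.6 and 35.6 CPM in the knockout-labelled pair (1.02, adjusted p = 0.0204). Crem, a cyclic AMP-responsive transcription factor gene, was higher (0.58, adjusted p = 0.0467). The adenylate cyclase gene Adcy6 (-0.80, adjusted p = 0.0253) and the protein kinase A regulatory subunit gene Prkar2a (-0.75, adjusted p = 0.0225) were lower. Without wild-type library 13 and without wild-type library 15, Rapgef4 (0.0664 and 0.137), Crem (0.194 and 0.442), Adcy6 (0.134 and 0.108) and Prkar2a (0.142 and 0.126) did not pass. Crem also missed with upper-quartile scaling (0.0558), with libraries scaled by totals only (0.0558) and with limma on log2(FPKM + 1) (0.108) and log2(FPKM + 0.1) (0.105). Among 10 genes acting with P2X7, 9 were tested and Casp1, the inflammasome protease, was the 1 that passed (13.1, 11.4, 24.4 and 25.8 CPM; 1.04, adjusted p = 0.0224; 0.072 without wild-type library 13 and 0.159 without wild-type library 15).

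Of the 13 genes for purine synthesis, 1 was higher and 3 lower (5.53% and 4.59% of all tested genes were), with a median log2 fold change of -0.32. Gart (-0.73, adjusted p = 0.0295), Pfas (-0.75, adjusted p = 0.0328) and Atic (-0.74, adjusted p = 0.0257), which encode enzymes that build inosine monophosphate, were lower in both knockout-labelled libraries than in both wild-type libraries. All 3 missed the threshold without wild-type library 13 (0.0912, 0.13 and 0.109) and without wild-type library 15 (0.243, 0.25 and 0.214). Adssl1, an adenylosuccinate synthase gene, was higher, at 21.5 and 16.8 CPM in the wild-type pair against 68.0 and 41.6 CPM in the knockout-labelled pair (1.52, adjusted p = 0.0238; 0.0693 without wild-type library 15). Of 8 genes for transcription factors described as regulators of Nt5e or Entpd1, 3 were higher and Foxp3 was lower (-2.18, adjusted p = 0.0233). The shares over all tested genes were 5.53% higher and 4.59% lower. Hif1a measured 905 and 894 CPM in the wild-type pair against 1426 and 1184 CPM in the knockout-labelled pair (0.54, adjusted p = 0.044). Epas1 (1.81, adjusted p = 0.0238) and Ahr (0.83, adjusted p = 0.041) were also higher. Without wild-type library 13 and without wild-type library 15, the adjusted p of Hif1a was 0.203 and 0.269 and that of Ahr 0.162 and 0.192, and Epas1 did not pass without wild-type library 15 (0.054). With limma on the 2 FPKM scales, Pfas, Hif1a and Ahr did not pass (0.0584 to 0.0708).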
